A study of Mus musculus with 12 samples.

Results

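The genes described here encode the extracellular matrix, the enzymes that cut or cross-link it and the integrins and proteoglycans that bind cells to it. They were chosen by name: collagen chains, laminin chains, integrin genes other than Itgb4, matrix metalloproteinases (MMPs) and their tissue inhibitors (TIMPs), ADAM and ADAMTS proteases, fibulins, fibrillins, lysyl oxidases, thrombospondins, syndecans and glypicans. A probe of the array was given to a gene through the NCBI gene number in its name. By this rule 105 of the 46628 probes belonged to 91 of the 8102 genes that could be named so, out of 196 mouse genes with such names in the RefSeq table. Of these 91 genes, 32 gave a signal above background on at least 1 array, and the other 59 could not be tested.

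RNA of primary mouse melanocytes, the pigment cells of the skin, was measured on 12 Illumina Mouse-6 arrays in 6 groups of 2. The cultures were ATF2-/- with 4-OHT (called mutant with 4-OHT), ATF2-/- without 4-OHT (mutant without 4-OHT) and ATF2+/+ without 4-OHT (WT), each in normoxia or under 1% O2 for 12 h (hypoxia). All cultures had doxycycline, which turns on a mutant Nras transgene, and were of the mixed strain FVB/129/OlaHsd/C57Bl/6. By the methods of the study the mice also lacked Ink4a, and 4-OHT (4-hydroxytamoxifen) activated a Cre recombinase driven by the tyrosinase promoter, which cuts out the floxed Atf2 exons that encode its DNA-binding and some of its leucine zipper region. Both mutant groups carry the label ATF2-/-, although only 1 of them had the drug that activates Cre. No WT culture had 4-OHT, so that in the comparison of the mutant with 4-OHT and WT the drug and the genotype cannot be told apart. Nothing in the labels ties the arrays of a group to separate animals or cultures, so p-values measure only the spread between these arrays.

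The extracellular matrix is a mesh of collagens, laminins and glycoproteins that cells secrete around themselves. Laminins and collagen IV form the basement membrane, the sheet on which melanocytes of the skin rest, and fibrillar collagens with fibulins and cross-linking lysyl oxidases give tissues their strength and elasticity. Integrins are paired receptors that hold the cell to this mesh, syndecans and glypicans carry heparan sulfate that binds matrix and growth factors, and MMPs, ADAMs and ADAMTS proteases cut matrix or shed proteins from the cell surface. Fibroblasts, muscle cells and pigment cells make different sets of these proteins.

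Several facts of the whole series bear on these genes. The 2 arrays of each group correlated at 0.951 to 0.994 over kept probes, and 10878 to 13032 probes were above background per array. The melanocyte markers with a probe, Dct and Trpm1, were above background on all 12 arrays, with Dct at 10405 to 17401 units. Trpm1 was lower in the mutant without 4-OHT in normoxia (215 and 1356 units) than in WT (2387 and 2742; log2 change -2.45, adjusted p = 0.00791) and than with 4-OHT (1864 and 2407; 0.0371). The former is the comparison with the most matrix genes higher, and its part there was not tested. The single Atf2 probe, whose place relative to the removed exons is not known here, was above background on 0 of 12 arrays (27.9 to 49.6 units), so the deletion could not be checked. Xist gave a signal in each of the 8 mutant RNAs and in 0 of the 4 from WT, the Y-linked Eif2s3y and Kdm5d in 0 of 8 and 4 of 4, so genotype and sex cannot be told apart. The skeletal muscle markers with a probe were Chrna1 and Chrng, subunits of the muscle acetylcholine receptor, and Myh7, a myosin heavy chain. All 3 were above background in the mutant with 4-OHT and in the mutant without 4-OHT in normoxia, with summed intensities of 4664 to 8154 units. Of the 19 genes listed as skeletal muscle markers only these 3 could be named on the array. None of the 3 was above background in WT or in the mutant without 4-OHT in hypoxia, with sums of 67.6 to 99.4 units. The mutant arrays without 4-OHT in hypoxia thus stood apart from the other 6 mutant arrays in these markers, while they shared the Xist signal of the mutants.

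The genes above background were unevenly spread over the families. All 4 fibulin and lysyl oxidase genes with a probe were kept, against 10 of 27 collagens, 8 of 27 ADAM and ADAMTS genes, 2 of 12 integrin genes, 3 of 9 MMP and TIMP genes, 2 of 5 laminins, 2 of 5 syndecans and glypicans and 1 of 2 thrombospondins. Among the 59 genes that stayed at background on every array were Col1a1, Col1a2 and Col3a1, the main fibrillar collagens of connective tissue. The probes of Itgav, Itga4, Lamb1, Sdc1, Thbs1 and Adam10 were at background as well, and no probe that was left out exceeded 58.2 units. Because a dim probe can reflect a poor probe as well as little RNA, no statement about these 59 genes was made. The integrin prefix also takes in Itgb1bp1 and Itgbl1, which are not integrin chains, and neither was above background. Each of the 32 genes had 1 kept probe, and Col7a1, Fbln1 and Timp3 had a further probe at background. Of the 32 genes, 16 were above background on all 12 arrays.

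**Figure D1:**
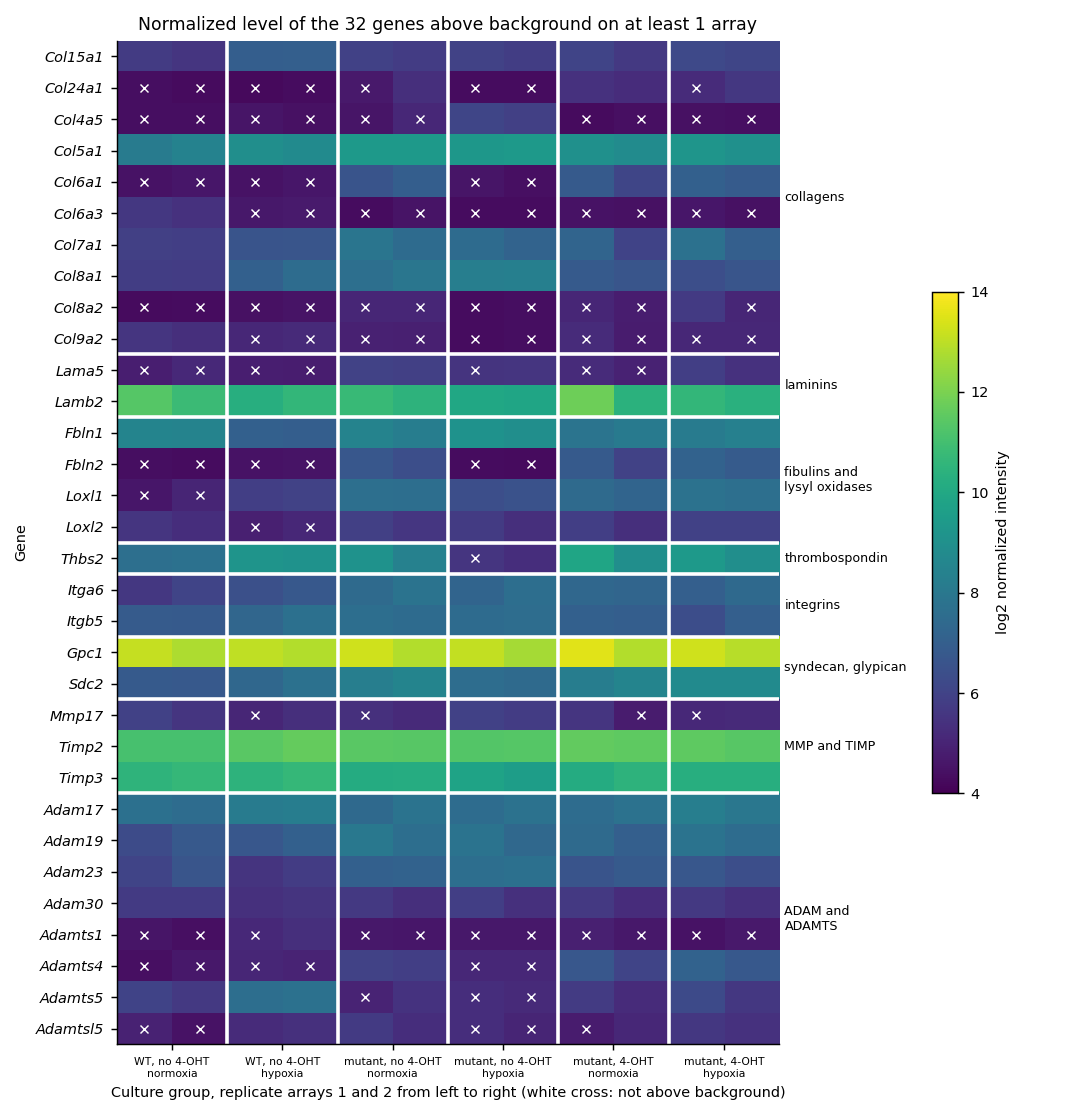
Heat map of the log2 normalized intensity of the 32 matrix genes above background on at least 1 array, with 1 row per gene ordered by family and 1 column per array, 2 for each of the 6 groups; a white cross marks an array on which the gene was not above background. Col6a1, Fbln2 and Adamts4 carry crosses on all WT arrays and on both arrays of the mutant without 4-OHT in hypoxia, while 16 genes carry no cross.

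Each of 9 comparisons between groups was tested with limma for every kept probe, with Benjamini-Hochberg adjusted p under 0.05 as the threshold. Against WT in normoxia, the mutant with 4-OHT had 12 matrix genes higher and 1 lower of 32, where 11.1% of all probes were higher and 11.7% lower. The mutant without 4-OHT had 15 higher and 1 lower against WT in normoxia, with 8.3% of all probes higher and 5.98% lower. Under hypoxia the mutant with 4-OHT had 11 matrix genes higher and 5 lower than WT (6.83% and 5.86% of all probes), and the mutant without 4-OHT had 7 higher and 6 lower (12.4% and 12.4%). In normoxia, 37.5% and 46.9% of the 32 genes were thus higher in the mutants, above the share of all probes, while the lower share of 3.12% in each was below it. These comparisons share the WT arrays. A gene entered the 32 by being above background somewhere, which favours genes that differ. Col6a1, Fbln2 and Adamts4, for example, entered only through the groups in which they were high. The same filter was used for all probes, but this need not even out the shares, since it may favour the 32 genes more than the rest, which was not tested.

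Between the mutants with and without 4-OHT, 0 matrix genes were higher and 2 lower in normoxia (2.54% and 3.45% of all probes). In hypoxia 10 were higher and 5 lower with 4-OHT (13.7% and 15.0% of all probes). Hypoxia against normoxia gave 7 higher and 2 lower genes in WT (5.3% and 4.86% of all probes), and 2 higher and 7 lower in the mutant without 4-OHT (5.62% and 6.65%). In the mutant with 4-OHT hypoxia gave 0 matrix genes in either direction, where 0.0268% of all probes were higher and 0.0% lower. This was a low count over the whole array and nothing particular to matrix genes. The median log2 change of the 32 genes was 0.27 and 0.70 against WT in normoxia for the mutant with and without 4-OHT, and from -0.20 to 0.26 in the other 7 comparisons, beside -0.06 to 0.04 over all probes.

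**Figure D2:**
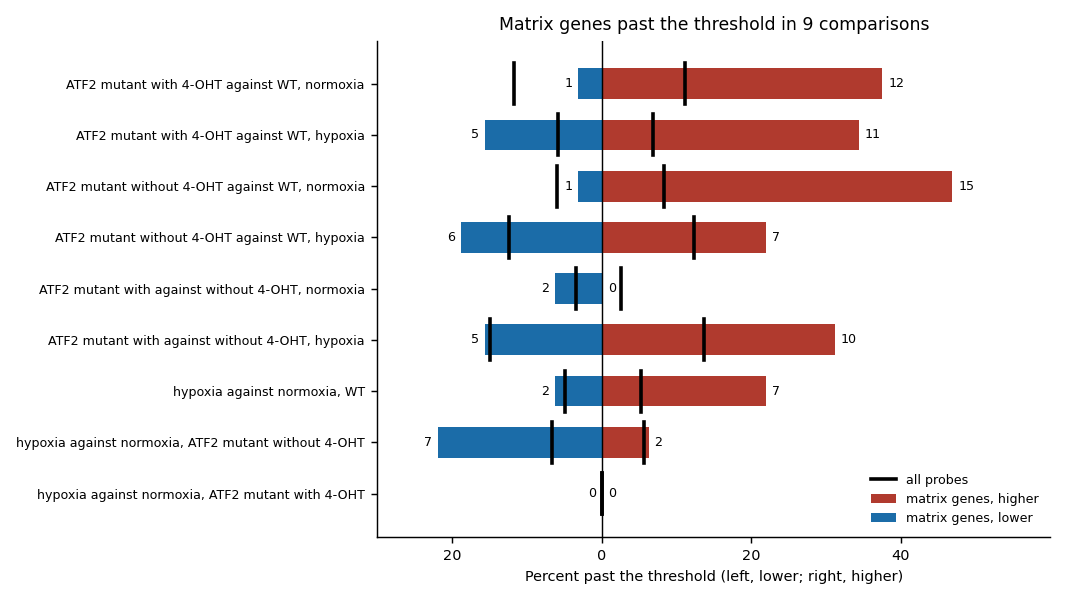
Bars give the percent of the 32 matrix genes past the threshold in each of 9 comparisons, higher to the right and lower to the left with the number of genes at the end, and black ticks give the percent of all 14906 kept probes. The bar for higher genes in the mutant without 4-OHT against WT in normoxia (15 genes) reaches furthest beyond its tick, and no gene passed for hypoxia in the mutant with 4-OHT.

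Of the 93 calls of a gene in a comparison, made by 27 genes, 49 were kept when each array compared was left out in turn and 46 of those also under each other setting tried. The 46 belonged to 15 genes, and they carry the description below. Counts moved by over 1.5 times without certain arrays. Without WT normoxia array 2 the mutant with 4-OHT had 8 genes against WT in normoxia instead of 13, and without WT normoxia array 1 the mutant without 4-OHT had 10 instead of 16. In hypoxia the mutant with 4-OHT against WT fell from 16 genes to 9 without its array 1, and to 8 and 9 without WT array 1 and 2. The mutant without 4-OHT against WT in hypoxia fell from 13 to 8 without WT array 1 or 2 and to 7 without its own array 2. Hypoxia in WT fell from 9 genes to 4 or 5 without any of its 4 arrays. Hypoxia in the mutant without 4-OHT fell from 9 to 5 without hypoxia array 1 or 2 or normoxia array 2. For 4-OHT in normoxia, the 2 genes became 0 without either array of the mutant without 4-OHT and 5 without array 2 of the mutant with 4-OHT, which also gave 1 gene for hypoxia in the mutant with 4-OHT.

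Col6a1 encodes the alpha 1 chain of collagen VI, which forms beaded filaments next to basement membranes. Its intensity was 29.8 and 41.3 units in WT normoxia, 29.3 and 41.2 in WT hypoxia, 91.3 and 183 in the mutant without 4-OHT in normoxia, 33.4 and 35.6 in that mutant in hypoxia, 119 and 95.2 in the mutant with 4-OHT in normoxia and 128 and 163 in hypoxia. It was thus above background in 3 of the 6 groups only, and these did not overlap with the other 3. Where 1 of 2 groups was at background only a lower bound of the fold is given, from the dimmest signal that counted as above background on those arrays. Col6a1 was at least 2.15-fold and 2.73-fold higher than WT in normoxia in the mutant with and without 4-OHT (adjusted p = 0.000325 and 9.32e-05), and at least 3.39-fold higher with 4-OHT in hypoxia (4.93e-05). The mutant with 4-OHT was also at least 2.94-fold above the mutant without it in hypoxia (3.24e-05), and in the mutant without 4-OHT Col6a1 was at least 2.61-fold lower in hypoxia than in normoxia (9.94e-05). All of these calls were kept in every fit.

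Fbln2, fibulin-2, a glycoprotein of basement membranes and elastic fibers, had the same order of groups. It measured 27.3 and 30.5 units in WT normoxia, 29.3 and 38.3 in WT hypoxia, 97.9 and 126 in the mutant without 4-OHT in normoxia, 26.1 and 28.8 in hypoxia, 119 and 89.4 in the mutant with 4-OHT in normoxia and 133 and 163 in hypoxia. Again the high and low groups did not overlap. Against WT it was at least 2.07-fold and 2.31-fold higher in normoxia in the mutant with and without 4-OHT (adjusted p = 0.000298 and 0.000167) and at least 3.47-fold higher in hypoxia with 4-OHT (5.42e-05). It was at least 3.01-fold higher with than without 4-OHT in hypoxia (2.51e-05) and at least 2.2-fold lower in hypoxia than in normoxia in the mutant without 4-OHT (0.000164), and all 5 calls were kept in every fit.

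Adamts4, a protease that cuts the proteoglycan aggrecan, was above background in the same 3 groups. It stood at 28.0 and 42.4 units in WT normoxia, 43.3 and 51.5 in WT hypoxia, 64.7 and 91.6 in the mutant without 4-OHT in normoxia and 43.1 and 54.9 in hypoxia. With 4-OHT it stood at 112 and 92.8 units in normoxia and 133 and 150 in hypoxia, above each array of the other groups. It was at least 2.04-fold above WT with 4-OHT in normoxia (adjusted p = 0.000298), at least 3.31-fold in hypoxia (0.000225) and at least 2.88-fold above the mutant without 4-OHT in hypoxia (0.000179), all kept in every fit. Without 4-OHT in normoxia it was at least 1.48-fold above WT (0.00204), a call lost with the background spread taken from all detection p-values (0.174). Its fall under hypoxia in the mutant without 4-OHT, at least 1.41-fold (0.0421), was lost without any of the 4 arrays (0.1 to 0.2).

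The muscle markers Chrna1, Chrng and Myh7 were above background in the same 3 groups as Col6a1, Fbln2 and Adamts4, as given above. So was Acta2, an actin of smooth muscle, with 138 to 377 units in those groups and 30.5 to 48.9 units in the others. Of the 6 genes listed as smooth muscle and pericyte markers only 2 could be named on the array, and the other, Cnn1, was at background on all arrays. Of the fibroblast markers with a probe, Postn was at background on all arrays, and the summed intensity of the 4 genes was 190 to 377 units in the 3 groups and 157 to 314 in the others. Of 3 myeloid markers 0 were above background on any array, of 5 Schwann cell markers 0 or 1, of 4 keratinocyte markers 1 or 2 (sums of 165 to 666 units, highest in WT hypoxia) and of 3 endothelial markers 1 or 2 (260 to 532 units, highest in the mutant without 4-OHT in hypoxia). Of the endothelial markers Emcn, endomucin, had the step of Col6a1, with 111 to 202 units in the 3 groups and 32.7 to 42.0 units, at background, in the others. Pecam1 was at background on all arrays. The other of the 2 kept endothelial markers went the opposite way, lower than WT in both mutants in normoxia and with 4-OHT in hypoxia. Without 4-OHT against WT in hypoxia, 1 of the 2 was called higher and 0 lower, with Emcn at background in both groups. The part of all these markers in the result was not tested. In RNA of whole cultures, more cells of a type and more RNA per cell cannot be told apart.

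**Figure D3:**
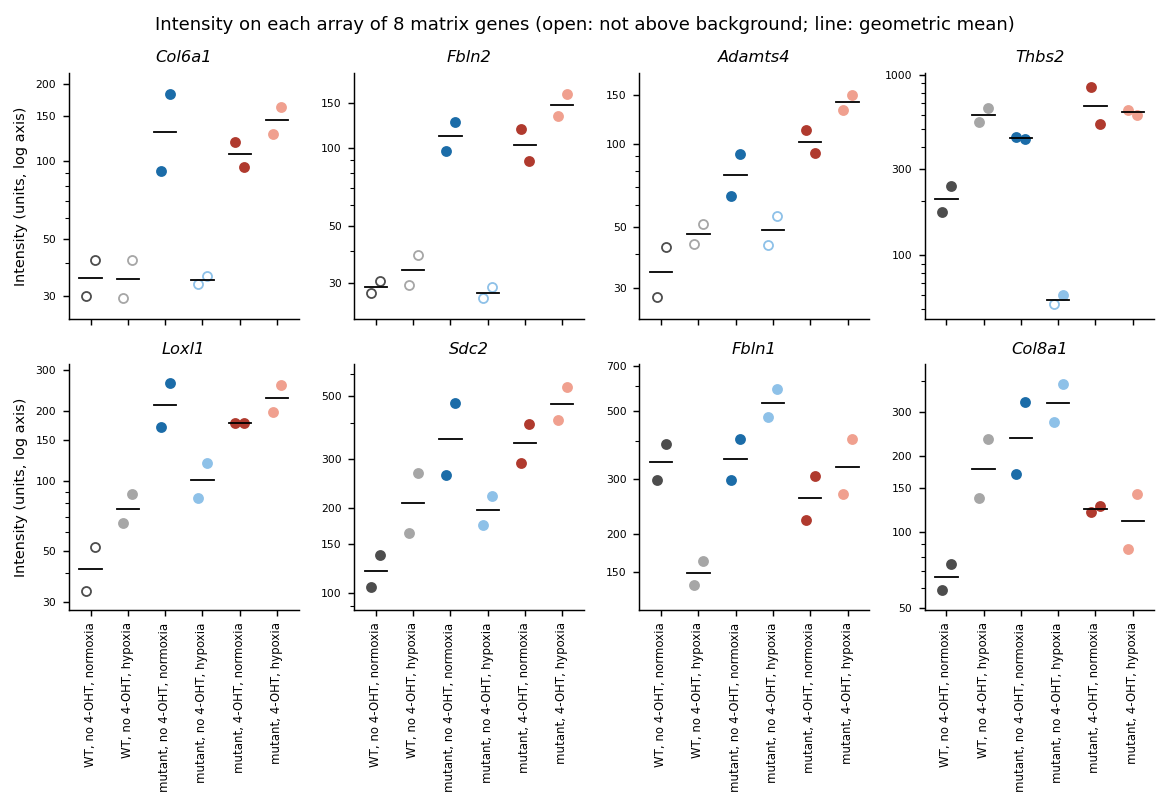
Intensity in units on a log axis of 8 matrix genes on each of the 12 arrays, by culture group; open circles were not above background and short lines are the geometric mean of the 2 arrays. Col6a1, Fbln2 and Adamts4 share a step between 3 high and 3 low groups, Thbs2 is low only in the mutant without 4-OHT in hypoxia (53.4 and 60.4 units), and Fbln1 is lowest in WT hypoxia (136 and 163 units).

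The promoters of Col6a1 and Fbln2 are shown because these genes had the clearest step, that of Thbs2 because it was low in 1 group of the 6, and that of Col24a1 because it holds the site ATF2 is known to bind. Each stretch runs from 250 bases before the RefSeq start site to 10 bases after it (GRCm38.p6), with capitals for a match to the cAMP response element TGACGTCA or the AP-1 site TGACTCA, either of which dimers of ATF2 or its relatives can bind.
Col6a1 (chr10:76726035-76726294, minus strand): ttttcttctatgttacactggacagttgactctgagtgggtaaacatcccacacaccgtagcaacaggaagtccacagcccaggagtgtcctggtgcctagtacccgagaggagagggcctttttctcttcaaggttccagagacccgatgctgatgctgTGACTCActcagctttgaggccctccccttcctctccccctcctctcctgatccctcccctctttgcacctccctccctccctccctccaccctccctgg
Fbln2 (chr6:91212514-91212773, plus strand): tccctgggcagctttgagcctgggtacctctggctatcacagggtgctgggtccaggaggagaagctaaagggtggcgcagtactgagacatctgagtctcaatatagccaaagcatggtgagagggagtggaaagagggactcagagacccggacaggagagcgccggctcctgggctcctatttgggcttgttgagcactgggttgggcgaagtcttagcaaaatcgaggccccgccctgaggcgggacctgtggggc
Thbs2 (chr17:14694253-14694512, minus strand): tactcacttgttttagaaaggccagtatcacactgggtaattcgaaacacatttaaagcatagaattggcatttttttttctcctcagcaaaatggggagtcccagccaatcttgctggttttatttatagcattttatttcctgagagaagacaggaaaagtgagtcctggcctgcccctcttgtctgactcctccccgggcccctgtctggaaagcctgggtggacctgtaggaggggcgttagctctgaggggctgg
Col24a1 (chr3:145292222-145292481, plus strand): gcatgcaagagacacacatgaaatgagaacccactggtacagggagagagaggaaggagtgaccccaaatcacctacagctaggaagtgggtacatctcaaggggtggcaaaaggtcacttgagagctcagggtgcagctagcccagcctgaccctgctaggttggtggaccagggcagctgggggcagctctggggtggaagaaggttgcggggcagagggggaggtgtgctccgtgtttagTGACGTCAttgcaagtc

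The AP-1 match of Col6a1 lay 90 to 84 bases before the start, and the response element of Col24a1 ran from 7 bases before the start to the first transcribed base. Promoter windows of 300 bases, searched on both strands, were found for 23 of the 32 genes (26 windows). Of these, 1 (3.85%) held TGACGTCA and 2 (7.69%) TGACTCA, against 1.79% and 5.2% of all 32851 windows. The core ACGTG, to which hypoxia-inducible factors bind, was in 5 windows (19.2%) against 19.6% of all windows, and all 5 belonged to Col5a1, Adam19 or Fbln1. The GC box GGGCGG was in 16 windows (61.5%) against 35.7%. A match describes the letters of the window and no binding.

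Col8a1, a chain of the network-forming collagen VIII, measured 59.1 and 74.9 units in WT normoxia, 137 and 234 in WT hypoxia, 171 and 329 in the mutant without 4-OHT in normoxia, 273 and 387 in hypoxia, 120 and 127 in the mutant with 4-OHT in normoxia and 86.0 and 142 in hypoxia. It was lowest in WT normoxia and highest in the mutant without 4-OHT in hypoxia, whose arrays stood above each array of WT and of the mutant with 4-OHT in hypoxia. It was 3.98-fold higher in the mutant without 4-OHT than in WT in normoxia (adjusted p = 5.81e-05), 3.42-fold higher without than with 4-OHT in hypoxia (8.15e-05), and 2.85-fold higher in WT under hypoxia (0.00233), all kept in every fit. With 4-OHT it was 1.91-fold above WT in normoxia (0.00687; 0.0572 without WT array 2). In hypoxia it was 1.99-fold above WT without 4-OHT (0.0045; 0.0509 without WT array 1) and 1.72-fold below WT with 4-OHT (0.0237; 0.129 without array 1 of the mutant and 0.228 without WT array 2). Its 2.08-fold lower level with 4-OHT in normoxia (0.0154) was lost without array 1 or 2 of the mutant without 4-OHT (0.0767 and 0.0668) and in a fit to only those arrays (0.333).

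Col4a5, a basement membrane collagen IV chain, was at background in 5 groups, with 26.4 to 59.7 units on their 10 arrays. In the mutant without 4-OHT in hypoxia it was above background, at 70.5 and 83.8 units. Col4a5 was there at least 1.72-fold above WT in hypoxia (adjusted p = 0.000327), at least 1.62-fold above the mutant with 4-OHT (0.000147) and at least 1.61-fold above normoxia (0.00237), all kept in every fit. It passed the filter only through this group, which favours such a difference and which the p-values do not allow for. Col6a3, another collagen VI chain, was above background in WT normoxia only, at 53.6 and 63.2 units, and measured 26.0 to 44.5 units elsewhere. It passed the filter only through WT normoxia, with the same limit. It was thus at least 1.25-fold and 1.17-fold lower in the mutant with and without 4-OHT in normoxia (0.000906 and 0.000817), opposite to Col6a1. Its drop in WT under hypoxia, at least 1.25-fold (0.0113), was lost without any of the 4 arrays (0.0737 to 0.117).

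Col15a1, collagen XV of basement membranes, rose in WT under hypoxia from 56.3 and 67.0 units to 130 and 168, a 2.59-fold change (adjusted p = 0.00233). No such step was called in the mutant cultures, with 64.2 and 87.8 against 66.0 and 79.5 units without 4-OHT and 77.2 and 76.6 against 76.9 and 103 with it. By limma the difference from the WT change passed without 4-OHT (adjusted p = 0.00625) but not with it (0.101). In hypoxia it was 2.17-fold lower than WT without 4-OHT (0.00127) and 1.81-fold lower with 4-OHT (0.00903), the latter lost without WT array 1 or 2 (0.0562 and 0.0754). Col5a1, a fibrillar collagen V chain, stood at 239 and 382 units in WT normoxia, 571 and 846 in the mutant without 4-OHT and 481 and 496 with 4-OHT. It was 2.13-fold higher without 4-OHT (0.00137, kept in every fit) and 1.53-fold higher with it (0.0239), which was lost without array 1 of the mutant or either WT array (0.057 to 0.196). In hypoxia its 6 arrays measured 467 to 784 units, and neither mutant passed the threshold against WT. Col7a1, Col8a2, Col9a2 and Col24a1, which were picked after their values were seen, had 1, 5, 2 and 3 calls. Col8a2, a chain of collagen VIII, had the same 5 calls in the same directions as Col6a1 but was above background on 1 of 12 arrays only. It measured 24.0 to 38.7 units on the WT arrays, 43.5 and 58.1 in the mutant without 4-OHT in normoxia and 25.4 and 33.3 in hypoxia, and 47.8, 51.0, 58.4 and 60.1 with 4-OHT. Its 5 calls were lost on the authors' normalized values, and 4 of them without at least 2 of the arrays. Col24a1, whose promoter is shown above, measured 20.8 to 31.4 units on the WT arrays and 48.0 to 81.5 with 4-OHT. Without 4-OHT it measured 37.2 and 68.9 units in normoxia and 25.9 and 30.8 in hypoxia. The normoxia difference from WT without 4-OHT was not called, but passed with the slide as a block (limma adjusted p = 0.0456). With 4-OHT it was at least 1.01-fold above WT in normoxia (0.00897), 1.17-fold in hypoxia (0.00689) and 1.01-fold above the mutant without 4-OHT in hypoxia (0.00397), of which none passed on the authors' normalized values (0.0717 to 0.129). The calls against WT were also lost without WT array 1 or 2 in normoxia (0.055 and 0.0676) and WT array 1 in hypoxia (0.0582).

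Fbln1, fibulin-1, had another order of groups than Fbln2. It measured 298 and 391 units in WT normoxia, 136 and 163 in WT hypoxia, 298 and 406 in the mutant without 4-OHT in normoxia, 478 and 589 in hypoxia, 222 and 308 in the mutant with 4-OHT in normoxia and 268 and 405 in hypoxia. The WT hypoxia arrays were below each of the other 10, and it fell 2.78-fold there (adjusted p = 0.00177). In hypoxia it was therefore 4.05-fold higher than WT without 4-OHT (2.21e-05) and 2.35-fold higher with it (0.000659), and these 3 calls were kept in every fit. It was 1.72-fold lower with than without 4-OHT in hypoxia (0.00587; 0.0613 without array 1 of the mutant without 4-OHT). A 1.59-fold rise under hypoxia without 4-OHT (0.0263) was lost without any of the 4 arrays (0.0627 to 0.194).

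Loxl1, a lysyl oxidase-like enzyme that cross-links elastic fibers, measured 33.4 and 51.7 units in WT normoxia, 65.6 and 88.1 in WT hypoxia, 171 and 265 in the mutant without 4-OHT in normoxia, 84.4 and 120 in hypoxia, 177 and 178 in the mutant with 4-OHT in normoxia and 199 and 260 in hypoxia. It was at background in WT normoxia only. It was at least 4.0-fold and 4.83-fold higher than WT in normoxia with and without 4-OHT (adjusted p = 4.76e-06 and 2.13e-06) and 3.47-fold higher in hypoxia with 4-OHT (5.2e-05). With 4-OHT it was 2.37-fold above the mutant without 4-OHT in hypoxia (0.000452), where it fell 2.24-fold from normoxia (0.00147), and these 5 calls were kept in every fit. In WT it rose at least 1.48-fold under hypoxia (0.00626; 0.0856 without normoxia array 1 and 0.0757 without hypoxia array 2). Its 1.46-fold higher level without 4-OHT against WT in hypoxia (0.0451) was lost without any of the 4 arrays (0.127 to 0.209). Loxl2, named after its values were seen, was at least 1.63-fold higher with 4-OHT than in WT in hypoxia (0.0218), a call lost without any of the 4 arrays (0.0701 to 0.162).

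Thbs2, thrombospondin-2, a secreted glycoprotein that restrains blood vessel growth, measured 174 and 244 units in WT normoxia, 548 and 658 in WT hypoxia, 454 and 444 in the mutant without 4-OHT in normoxia, 53.4 and 60.4 in hypoxia, 855 and 533 in the mutant with 4-OHT in normoxia and 645 and 605 in hypoxia. The mutant without 4-OHT in hypoxia stood below each of the other 10 arrays, and only 1 of its 2 arrays was above background. There it was 13.0-fold below WT (log2 change -3.70 ± 0.31 SE, n = 2 against 2 arrays, adjusted p = 2.16e-05 by limma), 13.5-fold below the mutant with 4-OHT (1.12e-05) and 9.93-fold below normoxia (4.79e-05). These calls were kept in every fit, while the folds rest on a group at the edge of background. In normoxia it was 3.32-fold above WT with 4-OHT (0.003, kept in every fit) and 2.07-fold without it (0.0463), which was lost without WT array 1 or 2 or array 1 of the mutant (0.171 to 0.283). Its 2.71-fold rise in WT under hypoxia (0.0193) was lost without any of the 4 arrays (0.107 to 0.137). Unlike Col6a1 and Fbln2 it was above background on all WT arrays. The muscle markers were at background there and also in the mutant without 4-OHT in hypoxia, and their part was not tested.

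Laminins are cross-shaped proteins of the basement membrane built of an alpha, a beta and a gamma chain. Lamb2, a beta chain, had 0 calls in 9 comparisons, with 857 to 2662 units over the 12 arrays and replicates as far apart as 2662 and 1414 in the mutant with 4-OHT in normoxia. Lama5, an alpha chain, measured 37.7 and 55.3 units in WT normoxia, 38.0 and 46.6 in WT hypoxia, 64.3 and 94.0 in the mutant without 4-OHT in normoxia, 51.5 and 68.0 in hypoxia, 51.1 and 54.2 in the mutant with 4-OHT in normoxia and 63.1 and 72.4 in hypoxia. Its 4 calls rest on a dim signal, at least 1.23-fold to 1.64-fold, and each was lost without 2 or more of the arrays compared. The call that 4-OHT lowered it in normoxia, at least 1.64-fold (adjusted p = 0.0334), was lost without array 1 or 2 of the mutant without 4-OHT (0.19 and 0.0813).

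Only 2 integrin genes were above background. Itga6, whose product pairs with a beta chain as a laminin receptor, was named after its values were seen. It measured 53.5 and 88.7 units in WT normoxia, 92.2 and 140 in WT hypoxia, 153 and 301 in the mutant without 4-OHT in normoxia, 141 and 243 in hypoxia, 164 and 181 in the mutant with 4-OHT in normoxia and 124 and 222 in hypoxia. In normoxia both mutants stood above WT, 2.74-fold with 4-OHT (adjusted p = 0.00146) and 3.44-fold without (0.000411), kept in every fit. In hypoxia it was 1.79-fold above WT without 4-OHT (0.0224), lost without array 2 of the mutant or either WT array (0.0542 to 0.174). Itgb5, which pairs with integrin alpha V to bind vitronectin, measured 83.3 and 178 units in the mutant with 4-OHT in hypoxia, 161 and 261 in WT and 166 and 238 in the mutant without 4-OHT. On the normalized scale it was 1.76-fold below WT (0.0333) and 1.8-fold below the mutant without 4-OHT (0.0148). Both were lost without array 1 of the mutant with 4-OHT or either array of the other group (0.059 to 0.263 and 0.07 to 0.106).

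Among cell surface proteoglycans, Sdc2, syndecan-2, measured 105 and 137 units in WT normoxia, 163 and 266 in WT hypoxia, 262 and 473 in the mutant without 4-OHT in normoxia, 175 and 221 in hypoxia, 290 and 398 in the mutant with 4-OHT in normoxia and 410 and 540 in hypoxia. It was named after its values were seen. In normoxia it was above WT in both mutants, 2.91-fold with 4-OHT (adjusted p = 0.000239) and 2.96-fold without (0.000197). In hypoxia the mutant with 4-OHT was 2.37-fold above WT (0.000984) and 2.38-fold above the mutant without it (0.000528), and these 4 calls were kept in every fit. In the mutant without 4-OHT it fell 1.82-fold under hypoxia (0.0105), lost without either hypoxia array or normoxia array 2 (0.0578 to 0.107), and in WT it rose 1.63-fold (0.0358), lost without any of the 4 arrays (0.0618 to 0.269). Gpc1, glypican-1, which is tied to the membrane by a lipid anchor, had 0 calls and a narrow range of 7295 to 9689 units on the 12 arrays.

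Adamts5, an aggrecanase like Adamts4, rose in WT from 65.8 and 70.8 units in normoxia to 193 and 266 in hypoxia, 3.53-fold (adjusted p = 0.00376; 0.0554 without normoxia array 2). No such step was called in the mutants, with 42.5 and 73.7 against 47.1 and 56.6 units without 4-OHT and 64.6 and 61.6 against 77.9 and 80.4 with it. The difference from the WT change itself passed by limma without 4-OHT (adjusted p = 0.00962) but not with it (0.144). In hypoxia it was thus at least 4.75-fold lower than WT without 4-OHT (0.000103) and 3.33-fold lower with it (0.00121), both kept in every fit. The 2 aggrecanase genes, Adamts4 and Adamts5, therefore stood in opposite order between WT and the mutant with 4-OHT in hypoxia. Adamts1, Adamtsl5 and Adam19 were named after their values were seen and made 3, 1 and 1 calls, each lost without at least 2 arrays.

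Adam23, a member of the ADAM family that binds integrins without cutting proteins, measured 67.3 and 122 units in WT normoxia, 53.7 and 78.0 in WT hypoxia, 120 and 198 in the mutant without 4-OHT in normoxia, 178 and 257 in hypoxia, 106 and 142 in the mutant with 4-OHT in normoxia and 104 and 123 in hypoxia. Without 4-OHT in hypoxia it was 4.08-fold above WT (adjusted p = 9.38e-05) and 2.14-fold above the mutant with 4-OHT (0.00331), kept in every fit. With 4-OHT in hypoxia it was 1.91-fold above WT (0.0159; 0.106 without array 1 of the mutant and 0.136 without WT array 1). In normoxia it was 1.68-fold above WT without 4-OHT (0.0409), lost without either array of the mutant or WT array 1 (0.129 to 0.331). Adam17, which sheds cytokines and growth factors from the cell surface, had 0 calls and ranged from 148 to 373 units.

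The inhibitors Timp2 and Timp3 were well above background on all arrays. Timp2 measured 1734 and 2264 units in WT normoxia and 2267 to 3592 on the other 10 arrays. Its 1.38-fold higher level with 4-OHT than in WT in normoxia (adjusted p = 0.0451) was lost without either WT array or array 1 of the mutant (0.0998 to 0.191). Timp3, named after its values were seen, measured 779 and 897 units in the mutant without 4-OHT in hypoxia, 1306 and 1876 in WT and 1135 and 1470 with 4-OHT. There it was 1.83-fold below WT (0.00451; 0.0583 without array 2 of the mutant) and 1.49-fold below the mutant with 4-OHT (0.0301), which was lost without any of the 4 arrays (0.0614 to 0.218). The other MMP above background, Mmp17, and Adam30 had 0 calls.

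Whether hypoxia acted alike in the 3 cultures was tested as a difference of log2 changes. In the mutant without 4-OHT the summed muscle markers were 5710 to 7778 units in normoxia and 77.8 to 98.8, at background, in hypoxia. In differences that involve this mutant, a response to hypoxia and another make-up of the culture therefore cannot be told apart. Between the mutant without 4-OHT and WT, 12 matrix genes differed in their hypoxia change (11.8% of all probes differed in either direction), 9 with a lower and 3 with a higher value in the mutant. The largest was Thbs2, whose change was lower by 4.75 ± 0.44 (SE) on the log2 scale, since it rose in WT and fell in the mutant (adjusted p = 7.9e-05). Loxl1 and Sdc2 moved the same ways, with differences of -2.25 ± 0.25 (0.000266) and -1.57 ± 0.26 (0.00305), and Fbln1 the opposite ways, with 2.15 ± 0.24 (0.00028). Between the mutant with 4-OHT and WT, 2 genes differed, Col8a1 and Fbln1, where 0.409% of all probes did. Between the mutants with and without 4-OHT, 8 genes differed (5.17% of all probes), with Thbs2 (3.08 ± 0.44), Fbln2 (2.85 ± 0.35) and Col6a1 (2.82 ± 0.34) first. Where a group was at background, such a difference is on the normalized scale and bounds nothing. The count of 12 became 7 without WT normoxia array 2. The count of 8 became 4 without hypoxia array 1 or 2 of the mutant without 4-OHT and 5 without normoxia array 1 of that mutant or hypoxia array 1 of the mutant with 4-OHT. The count of 2 became 0 without any WT array, 1 without array 1 of the mutant with 4-OHT in either oxygen, and 7 without its normoxia array 2. These comparisons share arrays.

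**Figure D4:**
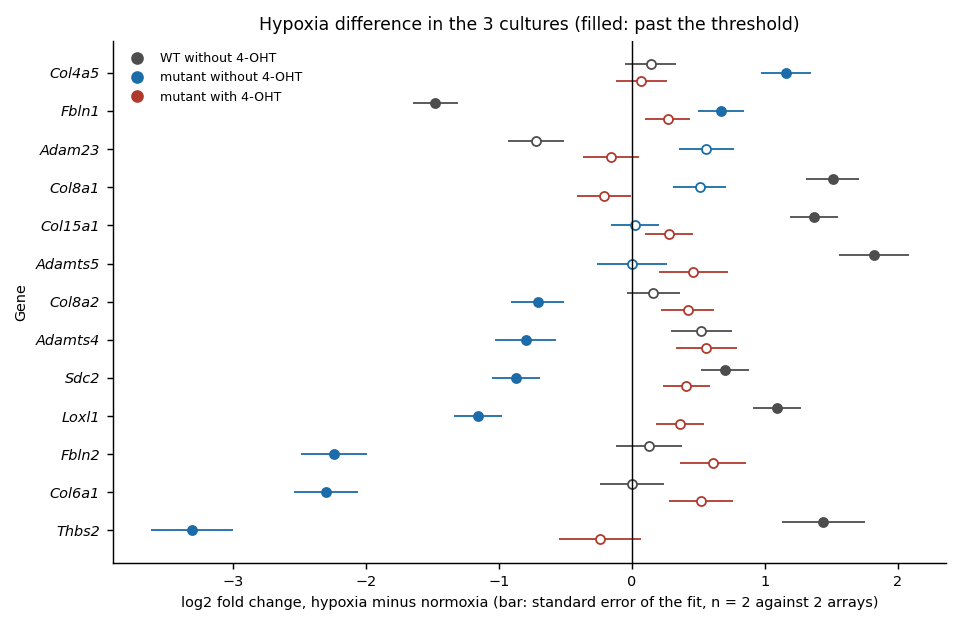
Log2 fold change of hypoxia against normoxia, with its standard error, in WT, mutant without 4-OHT and mutant with 4-OHT cultures for the 13 matrix genes that differed between cultures; filled circles passed the threshold. Thbs2, Col6a1 and Fbln2 are furthest to the left for the mutant without 4-OHT (-3.31, -2.30 and -2.24), whereas no value of the mutant with 4-OHT is filled.

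Other genes of matrix biology were read from lists of named genes. Of the collagen processing enzymes 5 of 7 with a probe were kept. Pcolce, which speeds the removal of the procollagen tail, was the one with the most calls: its log2 change against WT was 0.96 and 1.30 in normoxia with and without 4-OHT (adjusted p = 0.00702 and 0.00142) and 1.26 in hypoxia with 4-OHT (0.00175), and it fell by 1.03 under hypoxia without 4-OHT (0.00677). Others went the other way: the prolyl 3-hydroxylase P3h1 was lower with 4-OHT than in WT in normoxia (log2 change -0.62, 0.0283), and P3h2, of the same family, was lower in hypoxia, at least 1.13-fold (0.0179). P3h2 was also called lower with than without 4-OHT in hypoxia (-0.55, 0.0399), at background in both groups. The median log2 change of the 5 genes in these comparisons was -0.20, -0.07 and -0.51. Of 9 kept matrix glycoproteins and proteoglycans, 3 or 4 were higher and 0 lower than WT in each of the 4 comparisons with WT, where 6.83% to 12.4% of all probes were higher and 5.86% to 12.4% lower. Hspg2, the basement membrane proteoglycan perlecan, was higher in all 4, by 0.83 to 1.32 on the log2 scale. Ltbp2, a microfibril protein, was also higher in all 4, by 0.85 to 2.07 on the log2 scale, which was at least 1.71-fold to 2.48-fold in 3 of them and allowed no bound with 4-OHT in normoxia. Ccn1, a secreted ligand of integrins, was 2.11 higher on the log2 scale in the mutant without 4-OHT than in WT in hypoxia (3.97e-05), and Dcn, the proteoglycan decorin, which is also on the fibroblast list, fell in WT under hypoxia, at least 1.84-fold (0.00214).

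Of the 9 kept genes for integrin adaptors, Cd82, a tetraspanin that binds integrins, and Lims2, an adaptor of the integrin-linked kinase complex, had the largest changes. Cd82 measured 580 and 737 units with 4-OHT in hypoxia, 62.5 and 86.0 without it and 73.5 and 95.6 in WT, which was a log2 difference of 3.37 and 3.18 (adjusted p = 1.75e-07 and 2.69e-07). Lims2 was 2.80 lower on the log2 scale without 4-OHT than in WT in hypoxia (2.86e-05). Of 5 kept genes of TGF-beta signalling, which drives matrix synthesis in many cell types, the ligands Tgfb2 and Tgfb3 stood out. Tgfb2 was at least 4.75-fold and 5.75-fold above WT in normoxia with and without 4-OHT (5.52e-06 and 2.56e-06), and it fell by 2.36 on the log2 scale under hypoxia without 4-OHT (1.43e-05). Tgfb3 was 1.76 and 1.57 higher on the log2 scale than WT in normoxia (0.00185 and 0.00424) and fell at least 4.8-fold under hypoxia without 4-OHT (0.000396). Tgfb2 thus had its high values in the same 3 groups as Col6a1, Fbln2 and the muscle markers, and was at background in WT. Tgfb3, by contrast, was above background on all WT arrays and at background only in the mutant without 4-OHT in hypoxia. The part of these ligands in the result was not tested.

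As a check of the hypoxia cultures, the lists held 7 kept glycolytic and oxygen-sensing targets of hypoxia-inducible factors. In WT, 5 of the 7 rose and 0 fell (5.3% and 4.86% of all probes), and in the mutant without 4-OHT 3 rose and 1 fell (5.62% and 6.65%). In the mutant with 4-OHT 0 passed, with a median log2 change of 0.79 against 1.01 in WT. Ldha, lactate dehydrogenase A, went from 2688 and 3951 to 6080 and 7520 units in the mutant with 4-OHT, so these cultures moved in the same direction without passing the threshold.

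**Figure D5:**
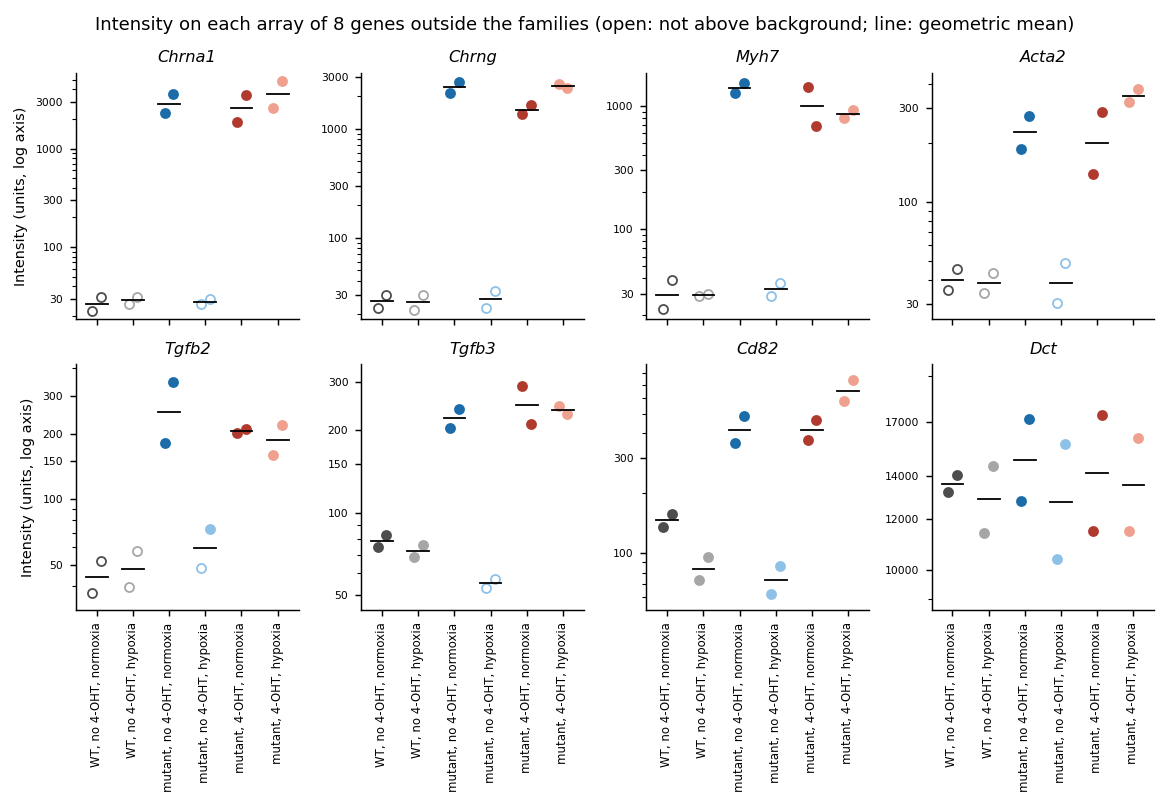
Intensity in units on a log axis of 8 genes outside the families on each of the 12 arrays, by culture group; open circles were not above background and lines are geometric means of 2 arrays. Chrna1, Chrng, Myh7, Acta2, Tgfb2, Tgfb3 and Cd82 are high in the 3 groups in which Col6a1 and Fbln2 are high, whereas Dct stays between 10405 and 17401 units on all arrays.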

How the data were processed

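By the study's methods and the file headers, the authors amplified RNA to labelled cRNA, scanned the BeadChips and exported them from BeadStudio 3.0. The deposited non-normalized table holds linear intensities, before any subtraction of background. Its deposited detection p-values rank a probe against negative controls on that array. A second table of intensities, background-subtracted and cubic spline normalized by the authors, served only as an alternative, with values under 16 set to 16.

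The neqc function (limma 3.58.1, R 4.3.3) with an offset of 16 corrected the background and gave quantile normalized log2 values. The spread of the background was inferred from the detection p-values, which move in steps of 1 in 1603, after those under 1 step were set to 0. Per array 5 bright probes had such values, and with them the spread was 100 to 178 units instead of 5.86 to 7.00. Printed intensities are the deposited values, and folds and overlaps are of normalized values. A probe counted as above background at a detection p under 0.01 and was kept if so on at least 1 of 12 arrays, which left 14906 after 26 spike-in probes were set aside. An at-least fold sets the bright group's mean against the higher of the dim signal and the lowest signal above background, leaving out on 9 arrays 1 probe whose detection p was out of order with its signal. One limma fit to 12 arrays (6 residual degrees of freedom) gave 9 comparisons and 3 differences between them, adjusted by Benjamini-Hochberg over all kept probes (threshold 0.05). The number of arrays limits the precision. The methods' BeadStudio test was not run.

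Arrays of 1 replicate number share a slide by the labels. Their deviations from the group means correlated from -0.22 to 0.60 over 15 pairs of groups (over 0.1 in 12), and the slide served as a block in an alternative. Genes were named by rule: the 3 largest rises and falls per comparison, the member of each family with the highest intensity and the 3 largest changes of the listed genes. Gene families, lists and rules were chosen with earlier results of these data known. Promoters are from RefSeq (GRCm38.p6). The fit was tested on simulated data for the mutant with 4-OHT against WT in normoxia. It recovered 1.49%, 52.2% and 93.9% of added log2 changes of 0.5, 1 and 2, with 1 false call among 99. Few probes were changed (67, 67 and 66), and noise was drawn independently for each array. In the data 11.1% of probes were higher and 11.7% lower, and deviations on a slide were correlated, so these rates need not hold there. Many changes of 2-fold or less were missed in the simulation, and such changes could be missed in the data as well. Python 3.11.15, pandas 2.3.3 and matplotlib 3.10.9 were used for tables and figures.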

Additional observations from a re-analysis of the deposited data

Results flagged for a closer look

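The hypoxia change of 13 matrix genes differed between cultures by limma's test of the difference itself, given here as differences of log2 changes with adjusted p. Between the mutant without 4-OHT and WT the values were -4.75 for Thbs2 (7.9e-05), -2.37 for Fbln2 (0.00179), -2.30 for Col6a1 (0.0016), -2.25 for Loxl1 (0.000266), -1.82 for Adamts5 (0.00962), -1.57 for Sdc2 (0.00305), -1.35 for Col15a1 (0.00625), -1.32 for Adamts4 (0.0231) and -1.0 for Col8a1 (0.0404). In the same comparison Col4a5 (1.01, 0.0325), Adam23 (1.28, 0.0209) and Fbln1 (2.15, 0.00028) lay the other way. Between the mutants with and without 4-OHT the values were 3.08 for Thbs2 (0.00166), 2.85 for Fbln2 (0.000588), 2.82 for Col6a1 (0.00045), 1.52 for Loxl1 (0.00438), 1.37 for Adamts4 (0.0337), 1.27 for Sdc2 (0.0151), 1.13 for Col8a2 (0.0497) and -1.09 for Col4a5 (0.0418). Between the mutant with 4-OHT and WT they were -1.72 for Col8a1 (0.0348) and 1.75 for Fbln1 (0.0218). The muscle markers, Acta2 and Emcn were above background only in the mutant with 4-OHT and in the mutant without it in normoxia. In differences that involve the mutant without 4-OHT, a response to hypoxia and another make-up of the culture thus cannot be told apart. Cnn1 and Pecam1, listed with Acta2 and Emcn, were at background on all arrays. The other kept endothelial marker was lower than WT in both mutants in normoxia, but not without 4-OHT in hypoxia. The part of these markers in the result was not tested.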

How the results depend on the processing

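None of the 93 calls reversed. The slide as a replicate block kept all 93 and moved no count by over 1.5 times (15 against 12 genes for the hypoxia difference between the mutant without 4-OHT and WT). Calls were lost in 26 cases with the background spread from all detection p-values, 16 on the authors' normalized values, 14 with no filter, 13 in a fit to only the arrays compared, and 6 each with array weights and with no background correction. The spread from all p-values left 9 genes for the mutant with 4-OHT against WT in hypoxia, 1 for 4-OHT in normoxia (1 also with no filter) and 5 for the hypoxia difference between the mutants, and raised the share of higher calls over all probes in hypoxia without 4-OHT from 45.8% to 61.1%. Both array weights and a fit to only the arrays compared gave 21 genes for the mutant without 4-OHT against WT in hypoxia, 0 for 4-OHT in normoxia and 20 for hypoxia in WT. For the hypoxia differences they gave 0 (mutant with 4-OHT and WT), 23 and 21 (mutant without 4-OHT and WT) and 4 and 4 (the mutants). The cause was not tested. The share of all probes called was not worked out for these settings, so their counts show nothing particular to matrix genes.

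With 1 array left out, the counts ranged from 8 to 16 and from 8 to 15 for the mutant with 4-OHT against WT in normoxia and hypoxia, from 10 to 14 and from 7 to 9 for the mutant without it, from 0 to 5 and from 11 to 15 for 4-OHT, from 4 to 5, 5 to 7 and 0 to 1 for hypoxia in WT and in the mutant without and with 4-OHT, and from 0 to 7, 7 to 10 and 4 to 11 for the 3 differences. A lone array was then assumed to vary like the other groups, and the share of all probes called was not worked out for these fits either. The 2 arrays a group limited the detection of small changes, and 59 of 91 genes were at background.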
